A study of Mus musculus with 9 samples.

Results

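Heme is built by a short chain of enzymes that starts in the mitochondrion, runs through the cytosol and ends in the mitochondrion again. Glycine and succinyl-CoA are joined to 5-aminolevulinic acid (ALA), ALA molecules are condensed and closed into a porphyrin ring, the ring's side chains are trimmed and oxidized, and iron is inserted last. Erythroid cells make heme in bulk for hemoglobin, and they switch from the housekeeping ALA synthase Alas1 to the erythroid form Alas2 as they mature. The 9 genes described here are the mitochondrial glycine carrier Slc25a38 and 8 enzymes in pathway order, Alas1, Alas2, Alad, Uros, Urod, Cpox, Ppox and Fech. They were taken as the rows of the count data whose gene identifier maps to one of these symbols, which gave 9 of 35275 genes. The step between Alad and Uros was not analysed here.

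Levels of these genes were measured by bulk RNA-seq in megakaryocyte-erythrocyte progenitors (MEPs), the bone marrow cells that give rise to red cells and platelets, sorted from mice as Lin-ckit+CD34-FcγRII/IIIlo cells. The 3 groups, of 3 libraries each, were compared. HS3A8-high MEPs bound more and HS3A8-low MEPs less of HS3A8, a single-chain antibody fragment (scFv) against heparan sulfate, and MPB49 control MEPs were mock-sorted with an scFv that does not bind heparan sulfate and stand for the whole MEP pool. Each library came from 25000 sorted cells. The study used age- and sex-matched mice, states an age range in weeks for all its experiments and names C57Bl/6 wild-type among its strains. The labels do not give the strain, exact age or sex behind a library. The study describes the replicates of the sorted fractions as individual mice, but neither it nor the labels say which libraries share a mouse, or how the control libraries relate to those mice. No treatment or genetic change is named for any group. The p-values given here measure only the spread between these libraries.

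Library totals ran from 11781637 to 15850037 counts. Levels are given as CPM (the counts of a gene relative to the library total) scaled by TMM, which corrects each library for its composition, over all 9 libraries. A count of 0 allows up to 3 counts, or 0.189 to 0.255 CPM, and this covers counting error only. One library stood apart. MPB49 control replicate 1 was the highest or the lowest of the 9 libraries for 61.6% of the 11336 genes that averaged 1 CPM or more, against 7.29% to 32.1% in the other libraries, and for 8 of the 9 heme synthesis genes. Relative to the mean of the other control libraries it was higher for genes with short transcripts (median log2 difference 0.57 in the shortest of 4 equal bins of transcript length) and lower for genes with long ones (-0.47 in the longest bin). In replicate 3 of both sorted fractions, the 12 granulocyte and monocyte markers summed to 1527 CPM (HS3A8-high) and 3529 CPM (HS3A8-low), against 6.17 to 210.5 CPM in the other 7 libraries. The MEP label was checked against 8 erythroid progenitor markers, among them Gata1, Klf1 and Epor, which were all detected and summed to between 10784 and 14699 CPM in every library.

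Sequence upstream of a gene is shown for Alas2, the erythroid enzyme, and for Cpox, 1 of 2 genes whose HS3A8-high and HS3A8-low libraries did not overlap. RefSeq promoters (GRCm38.p6) were at hand for 8 of the 9 genes, in 11 windows. Only the 250 bases before the annotated start were searched, for the hexamer NGATAN with A or T first and A or G last, the letters bound by GATA factors, and for CCNCNCCC, a pattern of the kind bound by Kruppel-like factors, each on both strands. Capitals mark the GATA-type hexamers. The Alas2 window is chrX:150547167-150547416 (+ strand) and the Cpox window chr16:58669958-58670207 (+ strand).
Alas2: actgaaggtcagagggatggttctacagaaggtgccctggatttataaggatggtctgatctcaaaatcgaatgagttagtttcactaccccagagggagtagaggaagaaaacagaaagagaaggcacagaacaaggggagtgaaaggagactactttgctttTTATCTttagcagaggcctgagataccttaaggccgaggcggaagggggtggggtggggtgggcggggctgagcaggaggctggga
Cpox: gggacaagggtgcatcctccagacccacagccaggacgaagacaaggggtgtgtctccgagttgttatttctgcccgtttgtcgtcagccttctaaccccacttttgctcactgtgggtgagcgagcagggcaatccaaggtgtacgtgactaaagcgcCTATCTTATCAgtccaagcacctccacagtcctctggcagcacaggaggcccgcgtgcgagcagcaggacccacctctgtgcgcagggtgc

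The Alas2 window held 1 GATA-type hexamer, which begins 86 bases before the start and reads on the opposite strand, and 4 overlapping or adjacent matches to CCNCNCCC. In the Cpox window, 2 GATA-type hexamers begin 91 and 86 bases before the start and share 1 base, and there was no match to CCNCNCCC. Uros had 2 GATA-type hexamers in 1 of its 2 windows. Neither window of Alas1, nor any window of Slc25a38, Alad, Urod or Ppox, held one. Matches to CCNCNCCC were also present in Alad (4 and 2 in its windows), Alas1 (2 and 1), Slc25a38 (2) and 1 window of Uros (1). The windows of Urod and Ppox held none. Over all 32851 mouse promoter windows of the same length, 26.5% held at least 1 GATA-type hexamer and 6.40% at least 2. For CCNCNCCC these shares were 45.9% and 27.3%. These matches describe letters in a window and were not tested as binding sites.

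Cpox (coproporphyrinogen oxidase, ENSMUSG00000022742, GRCm38 chromosome 16, 58670292 to 58717636) makes protoporphyrinogen in the mitochondrial intermembrane space. Its levels were 638, 629 and 621 CPM in HS3A8-high replicates 1 to 3 and 477, 513 and 518 CPM in HS3A8-low. Each HS3A8-high library lay above each HS3A8-low library. The means were 629 ± 8.47 CPM and 503 ± 22.3 CPM (SD, n = 3 each), a log2 fold change of 0.30 (SE 0.0647). In the control, 397, 560.2 and 613 CPM were measured, of which the first, from replicate 1, was the lowest of all 9 libraries. The control mean of 523 ± 113 CPM (SD, n = 3) lay between the fractions.

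Fech (ferrochelatase, ENSMUSG00000024588, chromosome 18, 64452914 to 64490251) inserts iron into protoporphyrin as the last step, and it showed a like pattern. Levels were 455, 449 and 459.6 CPM in HS3A8-high, and 346, 385 and 368 CPM in HS3A8-low. Here too the fractions did not overlap. Group means of 455 ± 5.27 and 366 ± 19.7 CPM (SD, n = 3 each) gave a log2 fold change of 0.28 (SE 0.0693). The control libraries were at 327, 430.4 and 423 CPM, again with replicate 1 the lowest of all 9, and their mean of 393 ± 57.9 CPM (SD, n = 3) lay between the fractions.

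For Cpox and Fech the call depended on the test and on the libraries fitted. In the 2-group fit without a replicate block, neither passed an adjusted p under 0.05 in edgeR's quasi-likelihood test, with Benjamini-Hochberg adjusted p of 0.0569 for Cpox and 0.0751 for Fech. Across genes, a library of one fraction departed from its group mean in step with the like-numbered library of the other fraction, so the fit with the number as a block is given beside it. In the blocked fit both were higher in HS3A8-high, with adjusted p of 0.0335 (log2 fold change 0.30, 95% interval 0.15 to 0.45) and 0.0412 (0.29, 0.13 to 0.44). DESeq2 and voom, run without a block, also called both, with adjusted p of 0.0014 and 0.0049 in DESeq2 and 0.0141 and 0.0322 in voom, and called 11.1% and 12.6% of all genes. In the fits of all 9 libraries together, with or without the block, neither passed, with adjusted p from 0.309 to 0.409. So in edgeR's 2-group fit 0 of the 9 genes passed without the block, where 3.82% of 11791 genes tested did, and 2 of 9 passed with it, where 11.6% of all genes did and 3.32% were higher in HS3A8-high. Cpox and Fech were also the only genes of the 9 without overlap between the fractions, a separation in the same direction that 14.2% of all genes tested showed. Fewer cells of a type and less RNA per cell cannot be told apart in these bulk samples. When any 1 library was left out, neither gene passed the test without the block, with adjusted p from 0.0608 to 0.197 for Cpox and from 0.0879 to 0.226 for Fech, while the log2 fold changes stayed between 0.27 and 0.35.

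**Figure D1:**
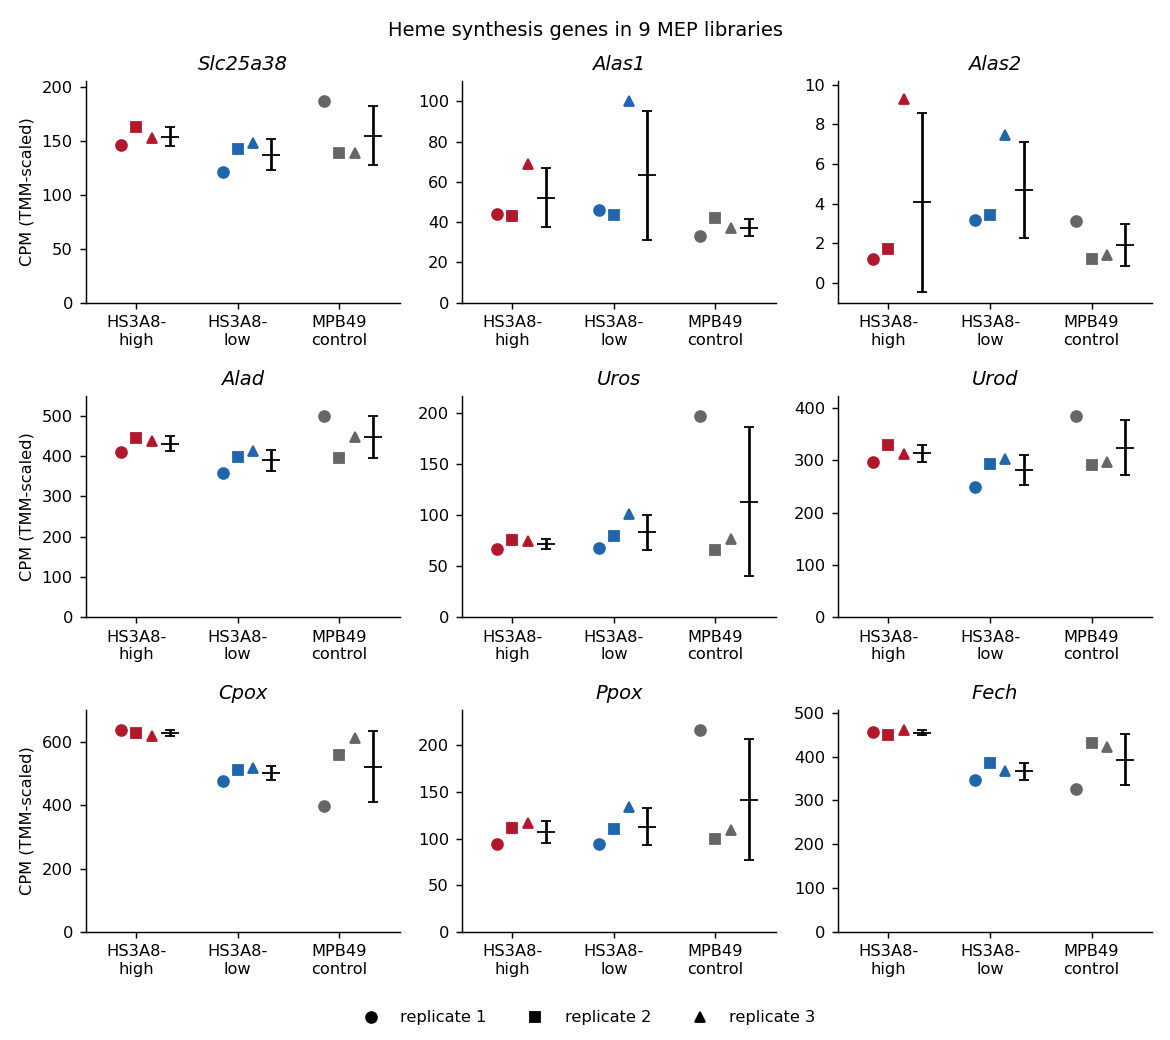
Level of each heme synthesis gene in CPM (TMM-scaled, linear axis) in the 9 MEP libraries, with 1 point per library, its shape giving the replicate number, and the group mean ± SD (n = 3) beside the points. Cpox and Fech are the panels in which all 3 HS3A8-high points lie above all 3 HS3A8-low points, and MPB49 control replicate 1 lies away from the other control libraries in most panels.

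Markers of other cell types moved with the same comparison, with counts given first for edgeR's 2-group fit. There, 0.611% of all genes tested were higher in HS3A8-high and 3.21% lower. With the block these shares were 3.32% and 8.27%. The erythroid progenitor markers summed to 13921 to 14699 CPM in HS3A8-high, 10784 to 11940 CPM in HS3A8-low and 12933 to 13727 CPM in the control, and 1 of 8, the carbonic anhydrase gene Car1, was higher in HS3A8-high without the block (3 of 8 with it). The 12 megakaryocyte markers summed to 81.9 to 118 CPM in HS3A8-high and 244 to 433 CPM in HS3A8-low. Of 10 tested, 4 were lower in HS3A8-high (7 with the block). Gp1ba and Gp5 differed little, with means of 11.2 and 44.7 CPM in HS3A8-high and 10.7 and 48.5 CPM in HS3A8-low. Gp6 was at 0 in all HS3A8-high libraries, but it was at 0.234 CPM or less in every other library too. Sums were also lower in HS3A8-high for stem and multipotent progenitor markers (16.4 to 31.8 against 149.7 to 182 CPM, 2 of 8 lower, 5 with the block). The same held for lymphoid markers (5.12 to 32.3 against 113 to 131 CPM, 1 of 5 lower, 2 with the block). Procr was at 0 in HS3A8-high and at 0.587 CPM or less in the other libraries, and Ms4a1 was at 0 in every library. The lymphoid sum in HS3A8-low was mostly the cytotoxic granule gene Nkg7, at 107, 97.2 and 115 CPM, against 7.47, 3.76 and 25.6 CPM in HS3A8-high. Basophil and mast cell markers ranged from 1.25 to 68.0 CPM in HS3A8-high and from 21.9 to 143 CPM in HS3A8-low. Of 3 tested, 0 passed (1 lower with the block). Cma1 was at 0 in both the HS3A8-high and the control libraries, and at 0.504 CPM or less in HS3A8-low. Of 9 granulocyte and monocyte markers tested, 0 passed without the block and 5 were lower with it. Without a block, DESeq2 and voom called 2 and 4 of the erythroid progenitor markers higher, and 6 and 7 of the megakaryocyte, 7 and 7 of the stem and multipotent progenitor, 2 and 3 of the lymphoid, 2 and 2 of the basophil and mast cell and 0 and 0 of the granulocyte and monocyte markers lower. Of all genes tested, DESeq2 called 3.5% higher and 7.6% lower, and voom 3.6% and 9.0%. In the fit of all 9 libraries with the block, 3 megakaryocyte and 3 stem and multipotent progenitor markers were lower. There, 0 markers of the other lists passed, and 0.958% of all genes tested were lower. The part of these cell types in the levels of Cpox and Fech was not tested.

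Slc25a38 (ENSMUSG00000032519, chromosome 9, 120110374 to 120124504) carries glycine into the mitochondrion for the first step. It was measured at 146, 163 and 153 CPM in HS3A8-high, 121, 143 and 148 CPM in HS3A8-low and 187, 139 and 139 CPM in the control. The fractions overlapped, although the HS3A8-high library was the higher of its number in 3 of 3. The log2 fold change between the fractions was 0.14 (95% interval -0.097 to 0.37), with an adjusted p of 0.5001.

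Alas1 (ENSMUSG00000032786, chromosome 9, 106233455 to 106248654) is the housekeeping ALA synthase, whose reaction sets the pace of the pathway in most tissues. In HS3A8-high it was found at 44.0, 43.2 and 69.1 CPM, in HS3A8-low at 46.3, 43.4 and 100.1 CPM, and in the control at 33.01, 41.9 and 37.0 CPM. Replicate 3 was the highest library of both fractions. All 6 sorted libraries lay above the 3 control libraries, by a narrow margin (43.2 CPM in the lowest sorted library, 41.9 CPM in the highest control library). Such an order was seen for 6.67% of all genes tested in HS3A8-high and 7.85% in HS3A8-low. The share with both was not counted. The log2 fold change between HS3A8-high and HS3A8-low was -0.30 (95% interval -1.15 to 0.54, adjusted p = 0.697), and it was -0.049 without replicate 3 of both groups and 0.19 without HS3A8-low replicate 3 alone.

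Alas2 (ENSMUSG00000025270, chromosome X, 150547375 to 150570638), the erythroid ALA synthase, had the lowest level per kb of exon of the 9 genes, with 19 to 140 counts per library. HS3A8-high libraries were at 1.19, 1.73 and 9.26 CPM, HS3A8-low libraries at 3.16, 3.44 and 7.48 CPM and control libraries at 3.10, 1.21 and 1.39 CPM. Replicate 3 was again the highest of both fractions, and there the fractions were in the other order. The log2 difference of HS3A8-high over HS3A8-low was -1.41 in replicate 1, -0.99 in replicate 2 and 0.31 in replicate 3. Over all replicates the log2 fold change was -0.23 (95% interval -2.12 to 1.66, adjusted p = 0.906), and -0.66 (adjusted p = 0.355) with the replicate block. It was -1.69 (adjusted p = 0.159) without HS3A8-high replicate 3, and -1.18 (adjusted p = 0.205) without replicate 3 of both groups. By contrast, leaving out HS3A8-high replicate 1 or 2 or HS3A8-low replicate 3 turned it positive, to 0.21, 0.13 and 0.27. A difference in either direction was therefore not detectable over the spread between these libraries. Of the exon bases of Alas2, 15.5% overlap exons of other genes (Apex2 and Mir3620) on the opposite strand, and whether the counting used the strand is not given in the sources used here. Apex2, which encodes a DNA repair nuclease, was at 8.18 to 21.4 CPM.

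**Figure D2:**
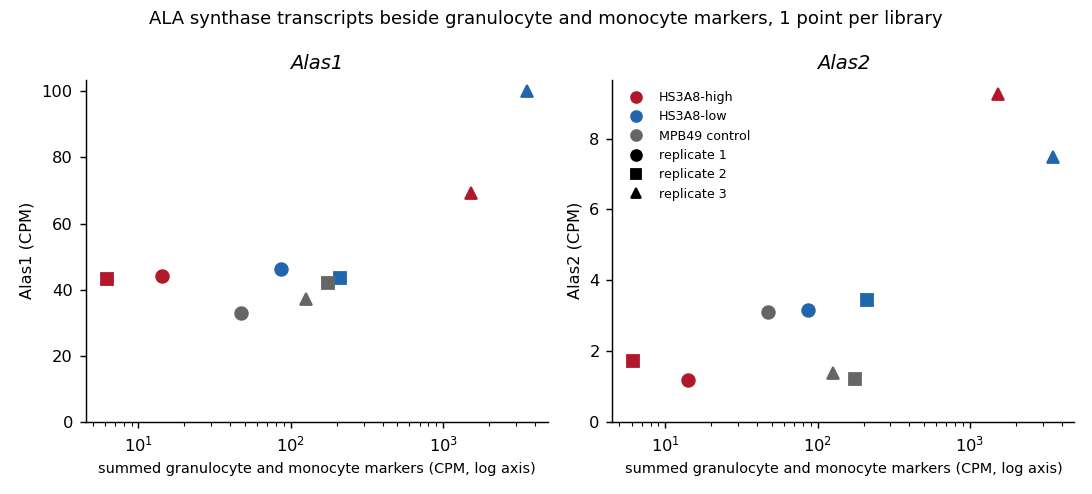
Level of Alas1 (left) and Alas2 (right) in CPM on a linear axis against the summed CPM of 12 granulocyte and monocyte markers on a log axis, with 1 point per library, coloured by group and shaped by replicate number. The libraries of replicate 3 of HS3A8-high and HS3A8-low, at 1527 and 3529 CPM of markers, hold the highest levels of both genes.

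The balance of the ALA synthases was compared within libraries, where no scaling between libraries is needed, as the log2 ratio of Alas2 to Alas1 counts with 0.5 added to each. HS3A8-high replicates stood at -5.17, -4.61 and -2.90, those of HS3A8-low at -3.86, -3.64 and -3.73, and control libraries at -3.39, -5.08 and -4.70. The ratio was nearly the same in all HS3A8-low libraries (SD 0.109, n = 3), and it spread over a wider range in HS3A8-high (SD 1.19) and the control (SD 0.883). The highest ratio was that of replicate 3 in HS3A8-high and that of replicate 1 in the control. A ratio of genes of unlike length does not remove a skew by transcript length, which control replicate 1 showed. Its log2 difference from the mean of the other control libraries was 0.9995 for Alas2 (2037 bases) and -0.25 for Alas1 (3399 bases). Differences of the means were -0.48 for HS3A8-high minus HS3A8-low (two-sided exact permutation test, p = 0.5), 0.16 for HS3A8-high minus control (p = 0.8, exact) and 0.64 for HS3A8-low minus control (p = 0.4, exact). Adjusted over the 3 comparisons, these exact p-values were 0.75, 0.8 and 0.75, and 3 libraries against 3 cannot give a p below 0.1.

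Alad, Uros and Urod act in the cytosol. Alad (ENSMUSG00000028393, chromosome 4, 62509169 to 62519918) condenses ALA to porphobilinogen, and was measured at 409.6, 445 and 437 CPM in HS3A8-high, 359, 397 and 411 CPM in HS3A8-low and 499.5, 395 and 446 CPM in the control. Its fractions overlapped by a single pair of libraries, with a log2 fold change of 0.12 (95% interval -0.063 to 0.30, adjusted p = 0.449). Urod (ENSMUSG00000028684, chromosome 4, 116989965 to 116994413), which trims the side chains of the ring, had 298, 330 and 313 CPM in HS3A8-high, 249.8, 293 and 304 CPM in HS3A8-low and 385, 291 and 298 CPM in the control. The log2 fold change was 0.13 (95% interval -0.098 to 0.35, adjusted p = 0.523). Both genes were higher in HS3A8-high in 3 of 3 replicate numbers, as were Slc25a38, Cpox and Fech. Such an order in all 3 numbers was seen for 27.6% of all genes tested.

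Uros (ENSMUSG00000030979, chromosome 7, 133686243 to 133710072) closes the porphyrin ring. It was at 66.7, 75.4 and 74.7 CPM in HS3A8-high, 68.0, 79.7 and 102 CPM in HS3A8-low and 198, 65.6 and 76.8 CPM in the control. The HS3A8-low library was the higher in 3 of 3 replicate numbers, but log2 differences of HS3A8-high over HS3A8-low were small in replicates 1 and 2. They were -0.028, -0.079 and -0.45 in replicates 1 to 3. The share of all genes with an order in this direction was not counted. The log2 fold change was -0.23 (95% interval -0.59 to 0.14, adjusted p = 0.472), and -0.056 without HS3A8-low replicate 3. The value of 198 CPM in control replicate 1 was the highest of the 9 libraries and set the control mean of 113 ± 73.3 CPM (SD, n = 3).

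Ppox (ENSMUSG00000062729, chromosome 1, 171275990 to 171281186) sits between Cpox and Fech in the pathway and oxidizes protoporphyrinogen, but its levels did not follow theirs. They were 94.4, 111 and 117 CPM in HS3A8-high, 94.1, 111 and 133 CPM in HS3A8-low and 216, 99.3 and 109 CPM in the control. Libraries of the same number differed by 0.0061 and 0.0035 on the log2 scale in replicates 1 and 2, and by -0.19 in replicate 3. Over all, the log2 fold change was -0.094 (95% interval -0.44 to 0.25, adjusted p = 0.771). Exons of B4galt3, a galactosyltransferase gene on the opposite strand at 22.8 to 32.8 CPM, overlap 17.5% of the exon bases of Ppox.

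**Figure D3:**
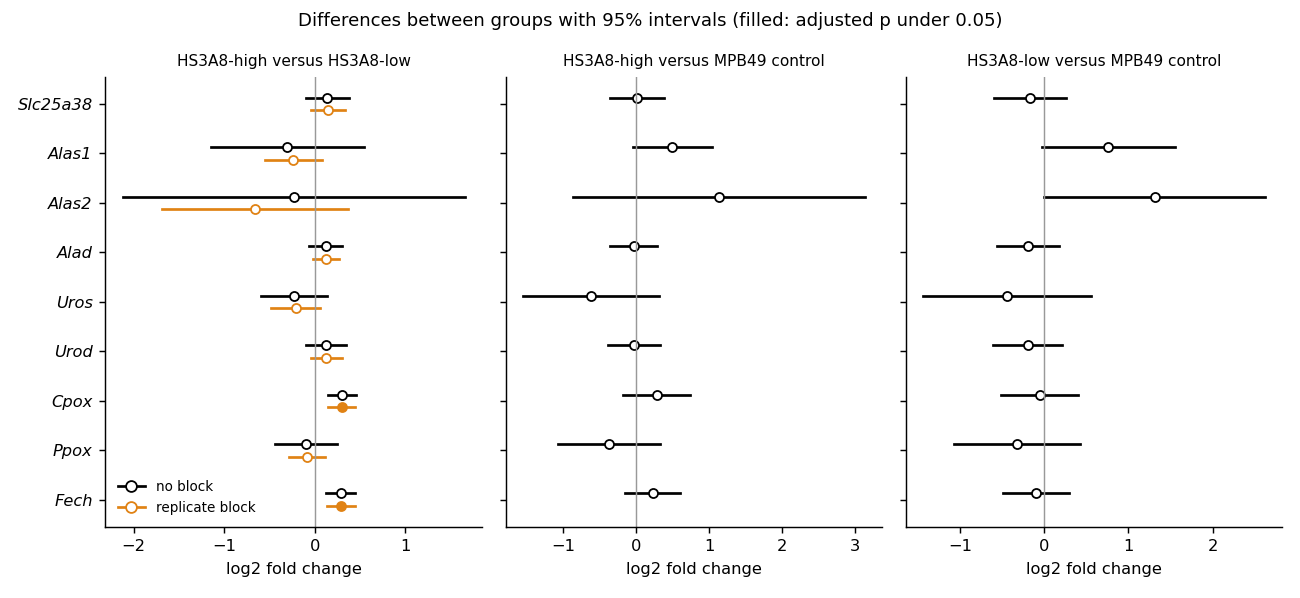
Log2 fold change of each heme synthesis gene with its 95% interval in the 3 comparisons (edgeR), without the replicate block (black) and, for HS3A8-high versus HS3A8-low, with it (orange), filled where the adjusted p is under 0.05. The filled points are Cpox at 0.30 and Fech at 0.29 in the blocked fit, and every interval against the MPB49 control includes 0.

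Against the MPB49 control, 0 of the 9 genes passed in either fraction. Both of these comparisons share the control libraries. The control mean lay between those of the fractions only for Cpox and Fech. It was below both for Alas1 and Alas2. For Slc25a38, Alad, Uros, Urod and Ppox it was above both, and control replicate 1 was the highest library for each of these. With HS3A8-high, edgeR called 2 of 11486 genes (0.0174%), 562 genes had an unadjusted p under 0.05, and DESeq2 and voom called 138 (1.2%) and 100 (0.871%). With HS3A8-low, edgeR called 0 of 11878 genes (0.0%), 673 had an unadjusted p under 0.05, and DESeq2 and voom called 94 (0.791%) and 287 (2.42%). No heme synthesis gene was called against the control by DESeq2 or voom.

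Alas1 was 0.49 higher on the log2 scale in HS3A8-high (95% interval -0.048 to 1.04, edgeR adjusted p = 0.733) and 0.76 higher in HS3A8-low (-0.032 to 1.56, adjusted p = 0.840) than in the control. For Alas2 these values were 1.13 (-0.87 to 3.13, adjusted p = 0.733) and 1.31 (-0.0087 to 2.63, adjusted p = 0.840). Without HS3A8-high replicate 3 the Alas2 difference from the control was -0.34. Libraries of HS3A8-high lay above those of the control without overlap for Alas1, Cpox and Fech, a pattern of 6.67% of all genes tested, and libraries of HS3A8-low for Alas1 and Alas2, a pattern of 7.85%. Cpox was at 0.28 (-0.18 to 0.73) in HS3A8-high and -0.057 (-0.51 to 0.40) in HS3A8-low against the control, and Fech at 0.22 (-0.16 to 0.60) and -0.10 (-0.49 to 0.29).

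Control replicate 1 stood apart for most of the 9 genes. It was the highest of the 9 libraries for Slc25a38, Alad, Uros, Urod and Ppox and the lowest for Alas1, Cpox and Fech. Against the mean of the other control libraries its log2 difference was 1.47 for Uros, 1.05 for Ppox and 0.9995 for Alas2, and -0.56 for Cpox and -0.38 for Fech. The longest annotated transcripts have 1791 bases in Slc25a38, 1769 in Alad, 2189 in Uros and 1489 in Urod. Those of Cpox, Ppox and Fech have 3097, 4411 and 6571 bases. Uros and Cpox fall in the same bin of transcript length (2100 to 3274 bases, median log2 difference 0.043), with differences of opposite sign. Ppox falls in the next bin (3275 to 4684 bases, median -0.21) and was high in this library. The part of transcript length in these values was not tested. With control replicate 1 left out, the log2 fold changes of Uros and Ppox in HS3A8-high against the control went from -0.62 and -0.37 to 0.028 and 0.051. All 9 genes were then above 0, with a median of 0.098 in place of 0.0099, but 0 passed. The median over all genes tested in that fit was 0.012, and the share of them above 0 was not counted. For HS3A8-low, Cpox and Fech then stood at -0.22 and -0.22 (adjusted p = 0.510 and 0.515) against the 2 remaining control libraries.

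**Figure D4:**
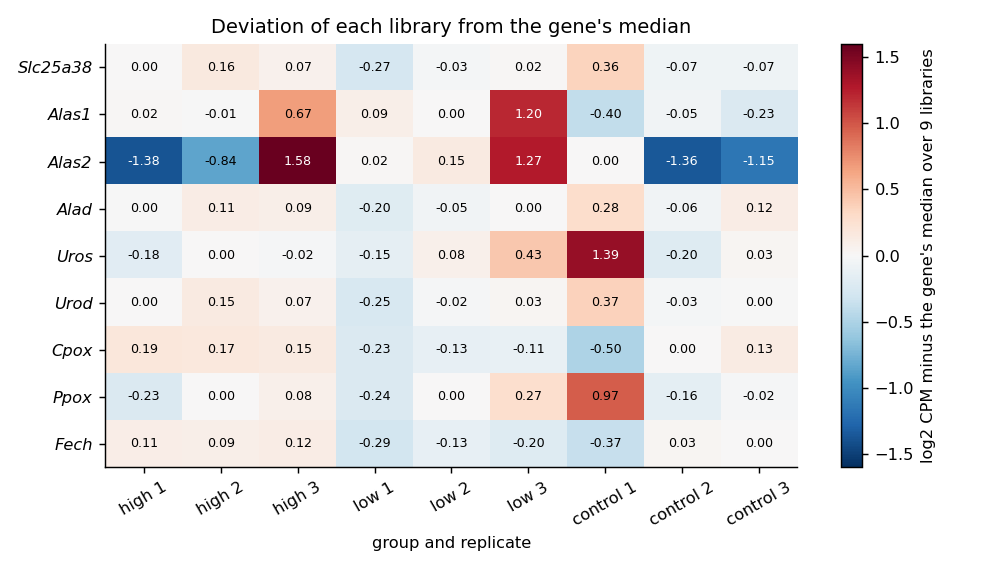
Log2 CPM of each heme synthesis gene (rows, in pathway order) in each library (columns, by group and replicate number) minus that gene's median over the 9 libraries, as colour and number. Control replicate 1 is the most displaced column for Uros and Ppox, replicate 3 of both sorted fractions holds the highest values of Alas1 and Alas2, and the Cpox and Fech rows are above 0 in all HS3A8-high and below 0 in all HS3A8-low libraries.

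Along the pathway, levels were compared between genes as CPM per kb of exon, taking the union of annotated exons. Over the 9 libraries Alad was the highest (mean 226 CPM per kb), followed by Urod (118), Cpox (82.8), Slc25a38 (54.1), Fech (29.3), Ppox (26.7), Uros (25.1), Alas1 (8.24) and Alas2 (1.48). The ranges of neighbours in this order did not overlap, except for Cpox with Slc25a38, Fech with Ppox and Ppox with Uros, where the order held in 8, 7 and 8 of 9 libraries. Taking the longest transcript as the length exchanged Ppox and Uros, at 27.3 and 40.9 CPM per kb, and left the other ranks in place. Both ALA synthases were thus at the bottom, and Alas2 lay below Alas1 in 9 of 9 libraries. All 9 genes together summed to 2152 to 2253 CPM in HS3A8-high, 1764 to 2091 CPM in HS3A8-low and 2023 to 2245 CPM in the control.

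**Figure D5:**
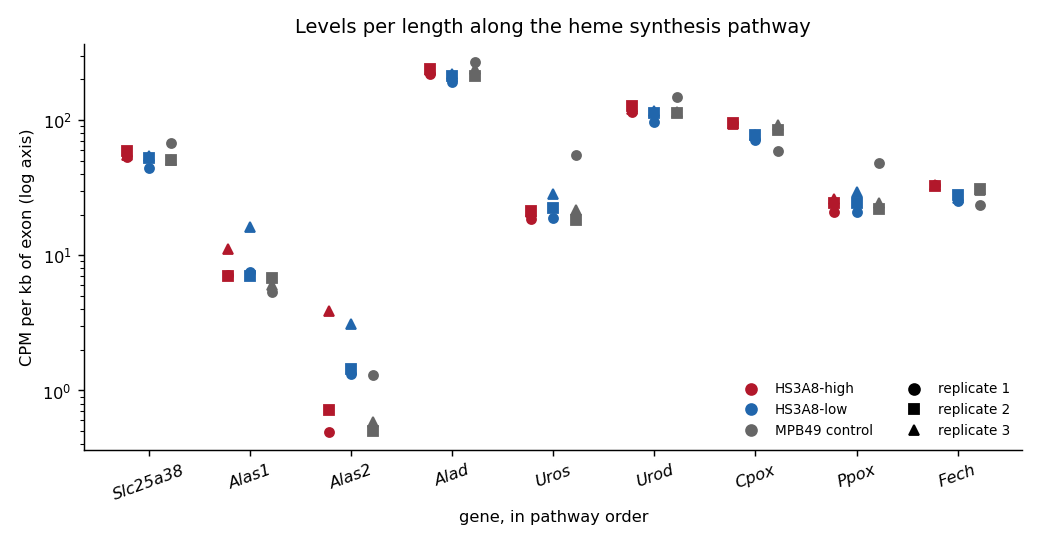
Level per kb of exon (CPM per kb, log axis) of the heme synthesis genes in pathway order, with 1 point per library, coloured by group and shaped by replicate number. The levels run from 0.496 CPM per kb for Alas2 to 267 CPM per kb for Alad, and Alas1 and Alas2 lie below the other genes in every library.

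The genes whose log2 CPM most resembled Alas1 and Alas2 over the 9 libraries were sought among 8367 and 8368 genes that averaged 10 CPM or more, as a description. For Alas1 these were Cnot8 (Pearson's r = 0.960), C3 (0.959), Asb17 (0.958), Chil3 (0.950) and Ly6c2 (0.947), of which C3 encodes a complement protein and Ly6c2 is 1 of the granulocyte and monocyte markers. Ly6c2 was at 200 and 505 CPM in replicate 3 of HS3A8-high and HS3A8-low and at 0.527 CPM in its lowest library. For Alas2 they were the adult α-globin genes Hba-a2 (0.953) and Hba-a1 (0.950), which are near-identical copies and share reads, Pld4 (0.924), the galectin gene Lgals3 (0.919) and the β-globin gene Hbb-bs (0.910). Hba-a1 was at 136 and 133 CPM in replicate 3 of the fractions, its mean over all libraries being 84.7 CPM. The points share the libraries and their 2 displaced replicates, and r between Alas1 and Alas2 was 0.763. Their r with Cpox and Fech lay between -0.24 and 0.18.

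Genes around the pathway were taken in 3 lists. Of 14 genes for porphyrin transport and substrate supply, 13 were tested between HS3A8-high and HS3A8-low and 0 passed, with or without the block. The largest difference among those averaging 5 CPM or more was that of the mitochondrial iron carrier Slc25a37 (log2 fold change -0.23, SE 0.149, adjusted p = 0.454). The median log2 fold change was 0.14 in this list, 0.12 in the 9 heme synthesis genes and -0.029 over all genes tested.

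Iron-sulfur cluster assembly is linked to heme synthesis through mitochondrial iron. Of its 10 genes, 1 passed, where 3.82% of all genes tested did. This was Hspa9, which encodes the mitochondrial chaperone mortalin. It was at 1118, 1159 and 1155 CPM in HS3A8-high, 854, 926 and 874 CPM in HS3A8-low and 711, 1065 and 1138 CPM in the control. All HS3A8-high libraries lay above all HS3A8-low libraries, as for 14.2% of all genes tested. The log2 fold change was 0.34 (SE 0.0578, edgeR adjusted p = 0.0312). This call was lost in 9 of 15 alternatives, among them the fit of all 9 libraries (adjusted p = 0.353). Its co-chaperone gene Hscb had the largest difference in size in this fit, -0.54 (SE 0.222, adjusted p = 0.239), but it was -0.31 without HS3A8-low replicate 3 and -0.21 without replicate 3 of both groups, smaller in size than the 0.34 and 0.35 of Hspa9 there. The list's median was 0.090.

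The 14 genes for heme export, breakdown and sensing, which include the enzymes that use heme to make heme A, had a median of 0.12, and 0 passed in edgeR's 2-group fit. With the block, 1 was higher and 1 lower in HS3A8-high (Cox10 and Hmox1), as were 3.32% and 8.27% of all genes tested. With all 9 libraries 0 passed, with or without the block. Without a block, Cox10 also passed in DESeq2 (adjusted p = 0.00105), in edgeR with DESeq2 size factors (0.0493) and in voom (0.00846), which also called Cox15 (0.0277), whose product makes heme A from heme O. Cox10, whose product converts heme b to heme O for cytochrome oxidase, was at 62.8, 65.4 and 60.1 CPM in HS3A8-high, 45.7, 38.9 and 33.1 CPM in HS3A8-low and 31.1, 46.1 and 44.8 CPM in the control. Its HS3A8-high libraries were above all the other 6. Of all genes tested, 14.2% lay above HS3A8-low in this way and 6.67% above the control, and the share with both was not counted. The log2 fold change was 0.65 (SE 0.141, edgeR adjusted p = 0.0569), and 0.66 with an adjusted p of 0.0223 with the block. Hmox1, which encodes the inducible heme oxygenase that breaks heme down, was at 0.628, 0.978 and 3.44 CPM in HS3A8-high and 1.70, 3.87 and 10.4 CPM in HS3A8-low. In each replicate number the HS3A8-high library was the lower, while the groups overlapped. The share of all genes with this order was not counted. The log2 fold change was -1.68 (SE 0.849, edgeR adjusted p = 0.336), and -1.70 with an adjusted p of 0.0336 with the block, the 1 of 15 alternatives in which it passed. Leaving out HS3A8-high replicate 3 gave -2.73 and leaving out HS3A8-low replicate 3 gave -0.74, neither of which passed (adjusted p = 0.155 and 0.679). As with Alas1 and Alas2, replicate 3 of both fractions, which had the most granulocyte and monocyte markers, held the highest Hmox1 level of its fraction, and the part of these cells was not tested.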

How the data were processed

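MEPs were profiled by bulk RNA-seq in 9 libraries, 3 each of HS3A8-high, HS3A8-low and MPB49 control. The authors had low-input libraries sequenced and mapped to mm10, and the deposited values are unnormalized read counts of each gene (STAR 2.5 and HTSeq 0.6.1 per the submitters' processing notes). The annotation release and strand setting are not given in the sources used here. GENCODE M21 (GRCm38) matched 34490 identifiers.

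Counts were tested in R 4.3.3 with edgeR 4.0.16 (filterByExpr, TMM, quasi-likelihood, 2 groups per fit), with Benjamini-Hochberg adjustment over all genes and an adjusted p under 0.05. Deviations from group means over 12108 genes correlated between HS3A8-high and HS3A8-low of the same number (r = 0.493, 0.325 and 0.509), and from -0.469 to 0.123 between different numbers, so blocked values are printed. The pairing comes from the data: the labels do not state it, and the study names individual mice without tying them to libraries. Alternatives were DESeq2 1.42.0, its size factors, limma 3.58.1 voom, filters, all 9 libraries, blocks and libraries left out. Tests were also run on simulated counts, but with changes much larger than those of Cpox and Fech. How the tests behave at differences of that size was not examined. Genes named are the 9 members, genes of the 3 context lists past the threshold with or without the block or with the largest difference at 5 CPM or more, and the 5 most similar to Alas1 and Alas2. Other gene names are marker or overlapping genes. Members and lists were chosen with earlier results of these data known.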

Additional observations from a re-analysis of the deposited data

How the results depend on the processing

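Between HS3A8-high and HS3A8-low, edgeR called 451 genes, against 1305 with DESeq2, 1490 with voom, 1367 with the replicate block, 117 with all 9 libraries and the block, 748 without replicate 3 of both groups, and 0 to 439 with 1 library left out (0 of 12194 without HS3A8-low replicate 2, with 1900 at an unadjusted p under 0.05, and 42, 53, 56 and 244 without HS3A8-high replicates 1 and 2 and HS3A8-low replicates 1 and 3). The count of heme synthesis genes went from 0 to 2 (Cpox and Fech) under DESeq2, voom and the replicate block, and was 0 in the other alternatives. For HS3A8-high against the control, 2 genes became 138 (DESeq2), 100 (voom), 9 (no count filter), 32 (all 9 libraries), 0 (replicate block, with 356 at an unadjusted p under 0.05) and 0 to 5 with libraries left out, and for HS3A8-low 0 became 94 (DESeq2) and 287 (voom). The causes were not tested. Control numbers shared only a number with the fractions (r from -0.345 to 0.0312 for the same number), and the block changed no call of a heme synthesis gene there.

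Among single genes, signs turned only for log2 differences that passed no test. With voom they became 0.095 for Alas1 between the fractions, 0.013 for Alad, 0.092 for Urod and 0.023 for Ppox in HS3A8-high against the control, and 0.0019 for Slc25a38, 0.11 for Uros and 0.043 for Ppox in HS3A8-low. Slc25a38 in HS3A8-high against the control was at -0.0092 with all 9 libraries and -0.0072 with the block added. Without replicate 3 of both groups, Ppox was at 0.00032 between the fractions, Slc25a38 at -0.046 and Alas2 at -0.51 in HS3A8-high against the control, and Cpox at 0.036 in HS3A8-low.

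With 1 library left out, the ranges that crossed 0 between the fractions were -0.55 to 0.19 (Alas1), -1.69 to 0.27 (Alas2) and -0.19 to 0.046 (Ppox). In HS3A8-high against the control they were -0.053 to 0.15 (Slc25a38), -0.34 to 1.64 (Alas2), -0.11 to 0.039 (Alad), -0.88 to 0.028 (Uros), -0.092 to 0.098 (Urod) and -0.56 to 0.051 (Ppox), and -0.50 to 0.66 for the log2 ratio of Alas2 to Alas1. In HS3A8-low they were -0.72 to 0.22 (Uros), -0.22 to 0.072 (Cpox) and -0.53 to 0.11 (Ppox). Alas2 had 19 to 140 counts per library, and 3 libraries per group limit every test.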
